A study of Mus musculus with 24 samples.

Results

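CD27+CD69+ natural killer (NK) cells from B16F10 melanoma tumours were compared with CD11b+CD69+ NK cells from the same kind of tumour, by RNA-seq of 6 libraries of each population. These are 12 of the 24 libraries of the study, chosen by their titles, and the other 12 hold the CD69- counterparts of both populations. The mice were female wild-type B6 animals, B16F10 cells had been implanted subcutaneously in the flank, and NK cells were sorted at day 14, with 100 cells in each library. The labels name no treatment for any of the 4 populations and do not say whether CD11b+ cells were also negative for CD27, and the cell type field gives melanoma where the design text names NK populations. No source used here says that the replicates came from separate animals or sorts. The p-values therefore describe the spread among these libraries alone, and that spread may be technical.

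Mouse NK cells mature from CD27+ cells that carry little CD11b, through cells with both proteins, to CD11b+ cells that have lost CD27. Cells at the end of this series hold more perforin and granzyme, carry KLRG1 and leave tissues through the sphingosine receptor S1PR5, while cells at its start proliferate more readily and keep receptors such as the IL-7 receptor and CXCR3. CD69 is an early activation and retention marker that antagonises the sphingosine receptor S1PR1, so the comparison sets the less mature against the more mature cells among those that carry it.

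Total counts ran from 1823628 to 2427734 in the CD27+CD69+ libraries and from 1830124 to 2461000 in the CD11b+CD69+ libraries, and a difference between the group means was not detected (two-sided exact permutation test over 924 splits, p = 0.281). CD27+CD69+ libraries had more genes with counts, 12710 ± 311 against 12026 ± 86.9 in CD11b+CD69+ libraries (SD, n = 6 each, two-sided exact permutation p = 0.00216, the smallest these groups allow). NK cell genes were abundant in all 12 libraries, and the summed level of 8 NK markers had a median of 12344 CPM (read counts normalised to library size over the tested genes, after TMM scaling) in CD27+CD69+ cells and 16101 CPM in CD11b+CD69+ cells. Fibroblast markers were at 0 in 11 of the 12 libraries and at 5.78 CPM in the other one, and summed melanoma markers reached 66.0 CPM in a CD27+CD69+ library and 28.2 CPM in a CD11b+CD69+ library. Markers of several other cell types moved with the comparison. The summed level of 11 T cell markers ran from 2155 to 3501 CPM (median 3075) in CD27+CD69+ libraries and from 1148 to 1508 CPM (median 1250) in CD11b+CD69+ libraries, and the ranges did not overlap. Macrophage markers summed to a median of 284 CPM in CD27+CD69+ cells and 179 CPM in CD11b+CD69+ cells, mostly Ctss, which encodes the protease cathepsin S, with Csf1r, Mrc1 and Fcgr1 at 0 in both. B cell markers summed to 496 to 650 CPM in CD27+CD69+ cells and 309 to 461 CPM in CD11b+CD69+ cells, mostly Ighm, with Pax5 and Igkc at 0 in both. Mast cell and basophil markers summed to a median of 55.7 CPM in CD27+CD69+ cells and 14.6 CPM in CD11b+CD69+ cells, mostly Kit, which immature NK cells also express. The part of other cell types in the results was not tested. Haemoglobin and platelet genes summed to 3388 CPM in CD27+CD69+ replicate 3 and to at most 6.21 CPM in the other 11 libraries.

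CD27+CD69+ and CD11b+CD69+ cells differed past the threshold in both directions, and the granzyme and perforin genes were among those lower in CD27+CD69+ cells. Of 10536 genes tested, 200 (1.9%) passed an adjusted p of 0.05 in edgeR's quasi-likelihood test with Benjamini-Hochberg adjustment over all genes. CD27+CD69+ cells had 104 genes higher (0.987%) and 96 genes lower (0.911%), and 1205 genes had an unadjusted p under 0.05. The median log2 difference over all genes tested was 0.02. Counts and medians of gene lists given later stand against these shares and this median. The lists and their members were chosen with earlier results of these data known, so the counts are a description and no test. Differences are given throughout as log2 of CD27+CD69+ over CD11b+CD69+, with the standard error of the fit, and levels as CPM, given as the lowest, median and highest of 6 libraries. Whether such ranges overlap is stated for named genes as a description, and the share over all genes tested is not given. Of the genes that rose, 77 of 104 differed at least 2-fold, against 42 of the 96 that fell. Among called genes with a mean of at least 1000 CPM in either population, 5 rose and 19 fell. The share of calls over all genes tested at that level is not given, so these counts are a description.

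**Figure D1:**
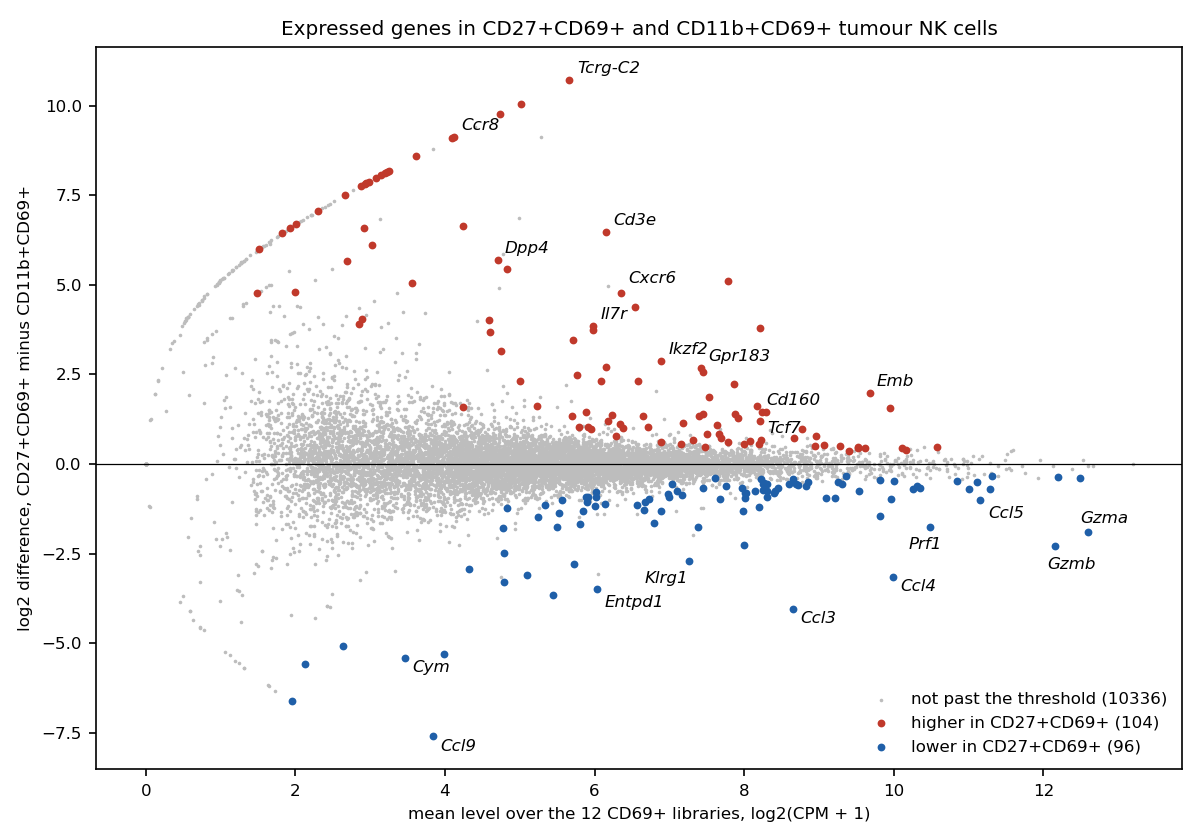
Log2 difference between CD27+CD69+ and CD11b+CD69+ cells (y axis) against the mean level over the 12 libraries on a log2(CPM + 1) scale (x axis), 1 point per gene tested, with the 104 genes higher in CD27+CD69+ cells in red, the 96 lower in blue and the other genes in grey. Among the abundant genes at the right, Gzma, Gzmb, Prf1 and Ccl5 lie below zero and Emb above it, and the T cell receptor gene Tcrg-C2 lies at the top.

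The genes for the sort markers followed the sort and are given as a description. Itgam, which encodes CD11b, stood at 0, 3.03 and 13.7 CPM (lowest, median and highest) in CD27+CD69+ cells and at 32.7, 48.8 and 66.3 CPM in CD11b+CD69+ cells. Cd27, the gene of the TNF receptor family costimulator that gives these cells their name, stood at 296, 341 and 375 CPM in CD27+CD69+ cells and at 85.9, 138 and 190 CPM in CD11b+CD69+ cells, so its RNA was present in every CD11b+CD69+ library. Cd69 RNA was at 1061, 1128 and 1417 CPM in CD27+CD69+ cells and at 1051, 1086 and 1207 CPM in CD11b+CD69+ cells, which overlap almost fully (log2 difference 0.08 ± 0.20, edgeR adjusted p = 0.954).

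The main cytotoxic granule genes were lower in CD27+CD69+ cells. Of 19 tested genes of this group 8 fell, none rose and the rest did not pass, against 0.911% of all tested genes that fell (median log2 difference -0.46). The 8 were Gzma, Gzmb, Prf1, Nkg7, Serpinb9, Serpinb6b, Ctsd and Fasl. Gzma, which encodes granzyme A, a serine protease delivered into target cells, was at 2282, 2648 and 3040 CPM in CD27+CD69+ cells and at 8359, 9836 and 10994 CPM in CD11b+CD69+ cells. The ranges lie far apart, and no tested gene had a smaller p (log2 difference -1.90 ± 0.11, a 3.74-fold lower level, edgeR adjusted p = 3.7e-12). Gzmb, the caspase-activating granzyme, was at 889, 1269 and 3324 CPM in CD27+CD69+ cells and at 4723, 7682 and 9234 CPM in CD11b+CD69+ cells (log2 difference -2.28 ± 0.28, edgeR adjusted p = 1.65e-05). CD27+CD69+ replicate 5 held the highest of its group for Gzmb, still below every CD11b+CD69+ library. Prf1, the pore-forming perforin, was at 496, 626 and 879 CPM in CD27+CD69+ cells and at 1893, 2190 and 2695 CPM in CD11b+CD69+ cells (log2 difference -1.77 ± 0.19, edgeR adjusted p = 7.97e-07). No library of either population reached the range of the other for Prf1. Smaller falls were those of Ctsd, the lysosomal protease cathepsin D (log2 difference -0.56 ± 0.09, edgeR adjusted p = 0.000528), of Serpinb9, the intracellular inhibitor of granzyme B (-0.70 ± 0.13, edgeR adjusted p = 0.00131), and of the death ligand Fasl (-0.46 ± 0.12, edgeR adjusted p = 0.0415). Granzyme and serpin genes lie in families of similar copies, so reads may be shared within them. Gzmc, a granzyme of the Gzmb cluster, was at 27.9, 261 and 1172 CPM in CD27+CD69+ cells and at 121, 234 and 475 CPM in CD11b+CD69+ cells, with no difference past the threshold (edgeR adjusted p = 0.878).

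Promoter sequences are shown for 3 granule genes and a chemokine gene that fell together, Gzma, Gzmb, Prf1 and Ccl3, and for Emb, an abundant gene that rose. They were chosen after their values were seen, from genes with 1 promoter in the table. Each runs from 250 bases before the start of transcription to 50 after it in RefSeq on GRCm38.p6, 5′ to 3′ on the strand of the gene. Capitals mark matches, on either strand, to the short motifs TGTGGT (RUNX), TGACTCA (AP-1), TTCNNNGAA (STAT), CTTTGAT (TCF1 and LEF1), AGGTGTGA (T-box) and GGGTGTG (KLF). A match is a description of the letters only.
Gzma, chr13:113100932-113101231, minus strand: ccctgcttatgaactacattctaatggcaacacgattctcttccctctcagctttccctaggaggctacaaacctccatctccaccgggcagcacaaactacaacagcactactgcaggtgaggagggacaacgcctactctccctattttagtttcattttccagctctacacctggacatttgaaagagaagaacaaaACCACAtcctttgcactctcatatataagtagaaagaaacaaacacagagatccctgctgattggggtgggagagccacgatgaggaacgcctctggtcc
Gzmb, chr14:56262285-56262584, minus strand: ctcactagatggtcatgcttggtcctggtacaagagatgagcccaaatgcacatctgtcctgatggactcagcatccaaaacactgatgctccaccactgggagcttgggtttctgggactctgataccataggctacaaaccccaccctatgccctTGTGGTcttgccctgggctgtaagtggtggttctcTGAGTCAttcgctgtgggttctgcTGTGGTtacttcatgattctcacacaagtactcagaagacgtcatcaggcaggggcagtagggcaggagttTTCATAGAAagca
Prf1, chr10:61297586-61297885, plus strand: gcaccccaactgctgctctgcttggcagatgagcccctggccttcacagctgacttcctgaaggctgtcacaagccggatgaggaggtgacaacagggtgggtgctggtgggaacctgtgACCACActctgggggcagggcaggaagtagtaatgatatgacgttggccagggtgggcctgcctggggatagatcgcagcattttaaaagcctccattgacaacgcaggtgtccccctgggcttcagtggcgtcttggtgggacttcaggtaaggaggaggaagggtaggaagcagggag
Ccl3, chr11:83649329-83649628, minus strand: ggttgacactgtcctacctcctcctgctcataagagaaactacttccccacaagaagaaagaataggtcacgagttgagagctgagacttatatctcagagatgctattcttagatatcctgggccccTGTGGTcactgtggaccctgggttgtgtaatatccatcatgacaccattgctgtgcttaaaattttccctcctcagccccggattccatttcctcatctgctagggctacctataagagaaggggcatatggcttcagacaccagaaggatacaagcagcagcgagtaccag
Emb, chr13:117220323-117220622, plus strand: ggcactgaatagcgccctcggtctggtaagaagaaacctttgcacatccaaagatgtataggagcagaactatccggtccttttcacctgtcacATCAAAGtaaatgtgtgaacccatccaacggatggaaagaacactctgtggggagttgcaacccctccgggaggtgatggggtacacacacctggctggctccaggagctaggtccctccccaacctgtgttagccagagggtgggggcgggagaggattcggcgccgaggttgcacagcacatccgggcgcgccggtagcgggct

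In the GENCODE annotation of GRCm38 the whole genes span chr13:113093825-113100981 for Gzma, chr14:56258838-56262260 for Gzmb, chr10:61297833-61304680 for Prf1, chr11:83647844-83649355 for Ccl3 and chr13:117208536-117274415 for Emb. Emb shares exon sequence with an overlapping annotated gene, Gm17509, and reads from the 2 cannot be told apart where the counting was unstranded. The capitals in the Gzma promoter are a RUNX match that begins 50 bases before the start, those in Prf1 begin 130 bases and those in Ccl3 122 bases before it. Gzmb holds 2 RUNX matches, at 93 and 34 bases before its start, an AP-1 match at 58 bases before it and a STAT match that begins at base 38 of the RefSeq transcript. All these positions count from the RefSeq start. The Gzmb promoter shown lies wholly outside the GENCODE span of Gzmb, and the Emb promoter shown lies within that of Emb, so the annotations place these starts differently. Emb holds a TCF1 and LEF1 match 156 bases before its start. RUNX letters are common, and 16.76% of the 32851 RefSeq promoters hold them, against 13.12% of the 10245 promoters of genes tested, 18.82% of the 85 promoters of genes higher in CD27+CD69+ cells and 20.59% of the 102 promoters of genes lower there. TCF1 and LEF1 letters were in 8.235% of promoters of the higher genes, 3.922% of those of the lower genes and 2.46% of those of all genes tested. T-box letters were in none of the promoters of the higher genes, in 0.9804% of those of the lower genes and in 0.8102% of those of all genes tested. STAT letters were in 14.12% of promoters of the higher genes and 11.76% of those of the lower genes, against 6.989% of those of all genes tested, AP-1 letters in 1.176%, 4.902% and 3.543% of the same sets, and KLF letters in 8.235%, 11.76% and 8.014% of them.

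Inflammatory chemokines and interferon gamma were lower in CD27+CD69+ cells. Of 16 tested cytokine and chemokine genes 5 fell, Ccl3, Ccl4, Ccl5, Ccl9 and Ifng, and 1 rose, Ltb, with a median log2 difference of -0.85. Ccl3, an inflammatory chemokine that draws in myeloid cells and lymphocytes, was at 13.7, 48.7 and 86.9 CPM in CD27+CD69+ cells and at 501, 701 and 1261 CPM in CD11b+CD69+ cells. The highest CD27+CD69+ library was thus far below the lowest CD11b+CD69+ library (log2 difference -4.03 ± 0.36, a 16.4-fold lower level, edgeR adjusted p = 1.85e-07). Ccl4, a related chemokine gene and the neighbour of Ccl3 on chromosome 11, was at 92.0, 212 and 318 CPM in CD27+CD69+ cells and at 1289, 1859 and 2504 CPM in CD11b+CD69+ cells (log2 difference -3.15 ± 0.35, edgeR adjusted p = 4.18e-06). Ccl5, a T cell attracting chemokine gene of the same chromosome, was at 1266, 1481 and 1904 CPM in CD27+CD69+ cells and at 2344, 3092 and 3512 CPM in CD11b+CD69+ cells (log2 difference -1.001 ± 0.13, edgeR adjusted p = 1.57e-05). For neither gene did the ranges meet. Ccl9 had 1 count in all in CD27+CD69+ cells and 376 in CD11b+CD69+ cells, a ratio of 361 with a 95% interval from 64.4 to 14305 that covers counting error only (edgeR adjusted p = 0.000597). The CD11b+CD69+ level of Ccl9 was uneven, from 0 to 94.5 CPM, and the call was lost with limma-voom (adjusted p = 0.118). Ifng, the interferon that activates macrophages and raises antigen presentation, was at 113, 148 and 165 CPM in CD27+CD69+ cells and at 297, 333 and 479 CPM in CD11b+CD69+ cells (log2 difference -1.32 ± 0.21, edgeR adjusted p = 0.000334). Its antisense neighbour Ifngas1 went the other way, at 17.8, 33.4 and 57.6 CPM in CD27+CD69+ cells and at 0, 0 and 1.30 CPM in CD11b+CD69+ cells (log2 difference 6.64 ± 0.99, edgeR adjusted p = 0.00014). Without CD11b+CD69+ replicate 1 the Ifngas1 difference was 7.89. The spans of both genes on chromosome 10 do not overlap. Other products did not pass the threshold, among them Xcl1, a ligand for the XCR1 receptor of cross-presenting dendritic cells (528, 703 and 769 CPM in CD27+CD69+ cells, 520, 736 and 955 CPM in CD11b+CD69+ cells, edgeR adjusted p = 0.928), and Flt3l, the dendritic cell growth factor (38.5, 61.7 and 75.7 CPM in CD27+CD69+ cells, 25.7, 40.4 and 60.4 CPM in CD11b+CD69+ cells, edgeR adjusted p = 0.593). Their ranges overlapped widely.

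Of 18 tested genes of mature NK cells 11 fell, Itgam, Klrg1, S1pr5, Zeb2, Cma1, Irf8, Klf2, Gzma, Gzmb, Cym and Ahnak, 1 rose, Ly6c2, and the rest did not pass (median log2 difference -1.74). Itgam was used in the sort, so its fall is no finding, and the count for this list is a description only. Klrg1, an inhibitory receptor for cadherins that marks late maturation, was at 2.03, 30.2 and 115 CPM in CD27+CD69+ cells and at 139, 298 and 335 CPM in CD11b+CD69+ cells. The groups stayed apart, although CD27+CD69+ replicate 5 lay well above the rest of its group (log2 difference -2.71 ± 0.51, edgeR adjusted p = 0.00327). Without that library it was -3.38. S1pr5, the sphingosine receptor of NK cell egress, was at 0, 13.2 and 28.4 CPM in CD27+CD69+ cells and at 56.3, 87.2 and 153 CPM in CD11b+CD69+ cells (log2 difference -2.79 ± 0.46, edgeR adjusted p = 0.000544). Cma1, a chymase gene near the granzyme cluster on chromosome 14, was at 0, 3.55 and 17.7 CPM in CD27+CD69+ cells and at 59.3, 74.9 and 99.9 CPM in CD11b+CD69+ cells (log2 difference -3.66 ± 0.52, edgeR adjusted p = 0.000129). Neither gene had overlapping ranges, and without CD27+CD69+ replicate 5 the Cma1 difference was -4.36. Cym, which encodes a chymosin-type protease, had a highest level of 2.75 CPM in CD27+CD69+ cells and a lowest of 5.93 CPM in CD11b+CD69+ cells (log2 difference -5.40 ± 0.93, edgeR adjusted p = 0.000854). All its CD27+CD69+ counts were in replicate 4. Ly6c2, a Ly6 family surface protein of mature NK and memory T cells with near copies in the genome, was at 1621 to 1926 CPM in 5 of 6 CD27+CD69+ libraries and at 301 CPM in replicate 6, against 417 to 581 CPM in CD11b+CD69+ cells (log2 difference 1.56 ± 0.31, edgeR adjusted p = 0.00453).

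Other large falls lay outside these lists. Entpd1, which encodes CD39, the ectoenzyme that degrades extracellular ATP, was at 4.08, 10.8 and 18.8 CPM in CD27+CD69+ cells and at 97.0, 105 and 185 CPM in CD11b+CD69+ cells (log2 difference -3.48 ± 0.39, edgeR adjusted p = 2.16e-06). Cdc20b, a relative of the cell cycle gene Cdc20, was at 0, 0 and 3.23 CPM in CD27+CD69+ cells and at 8.24, 22.8 and 77.0 CPM in CD11b+CD69+ cells (log2 difference -5.30 ± 0.77, edgeR adjusted p = 0.000109). In both genes every CD11b+CD69+ library exceeded every CD27+CD69+ library, and without CD27+CD69+ replicate 1 the Cdc20b difference was -7.53. Serpinb9b, a granzyme inhibitor of the Serpinb9 family, was at 18.6, 37.7 and 326 CPM in CD27+CD69+ cells and at 268, 400 and 631 CPM in CD11b+CD69+ cells, with CD27+CD69+ replicate 4 inside the upper range (log2 difference -2.27 ± 0.48, edgeR adjusted p = 0.00997). Without that library the log2 difference was -3.37. Its call was lost when the fit held only these 12 libraries. The kinase gene Cdk14 (log2 difference -2.94 ± 0.65, edgeR adjusted p = 0.0102) was lost in the same way, and without CD27+CD69+ replicate 2 its difference was -3.53. Pcyt1a, an enzyme of phosphatidylcholine synthesis, fell (log2 difference -1.79 ± 0.46, edgeR adjusted p = 0.0372), and its call was lost in 4 of 8 alternatives and without any library except CD27+CD69+ replicate 6 or CD11b+CD69+ replicate 4 (adjusted p up to 0.126 over all these fits).

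Transcription factors changed in both directions. Of 16 tested factors of mature NK cells 5 fell and none rose (median log2 difference -0.56), and of 16 factors of immature NK cells and innate lymphoid cells 3 rose and 1 fell (median 0.03). Irf8, an interferon regulatory factor needed for NK cell responses, was at 401, 475 and 641 CPM in CD27+CD69+ cells and at 1106, 1285 and 1604 CPM in CD11b+CD69+ cells (log2 difference -1.44 ± 0.16, edgeR adjusted p = 1.35e-06). Zeb2, the zinc finger repressor that acts with T-bet in late maturation, was at 1.65, 16.3 and 44.3 CPM in CD27+CD69+ cells and at 43.8, 61.4 and 111 CPM in CD11b+CD69+ cells (log2 difference -1.75 ± 0.44, edgeR adjusted p = 0.0293). The Irf8 ranges lie apart, and those of Zeb2 overlap slightly. Klf2, a regulator of trafficking and quiescence (log2 difference -0.74 ± 0.14, edgeR adjusted p = 0.00211), Runx1 (-1.07 ± 0.22, edgeR adjusted p = 0.00592) and the activation-induced repressor Bhlhe40 (-0.70 ± 0.15, edgeR adjusted p = 0.00771) fell by less. Id2, the inhibitor of E proteins that all innate lymphoid cells need, fell too, with 1398, 1565 and 1842 CPM in CD27+CD69+ cells against 2185, 2459 and 3096 CPM in CD11b+CD69+ cells (log2 difference -0.69 ± 0.12, edgeR adjusted p = 0.000628). The T-box factors that define NK cells did not pass: Tbx21, which encodes T-bet, was at 170, 206 and 265 CPM in CD27+CD69+ cells and at 263, 322 and 374 CPM in CD11b+CD69+ cells (edgeR adjusted p = 0.218), and Eomes was at 197, 261 and 293 CPM in CD27+CD69+ cells and at 285, 350 and 407 CPM in CD11b+CD69+ cells (edgeR adjusted p = 0.137).

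Ikzf2 had the smallest p of the factors that rose. This gene for Helios, an Ikaros family zinc finger protein, was at 151, 207 and 275 CPM in CD27+CD69+ cells and at 3.47, 29.9 and 39.8 CPM in CD11b+CD69+ cells, ranges well apart (log2 difference 2.88 ± 0.33, a 7.38-fold higher level, edgeR adjusted p = 2.16e-06). Tcf7, which encodes TCF1, the Wnt pathway factor of early lymphoid cells, was at 355, 403 and 507 CPM in CD27+CD69+ cells and at 113, 175 and 254 CPM in CD11b+CD69+ cells. The ranges do not meet, but the call was close (log2 difference 1.21 ± 0.30, edgeR adjusted p = 0.029) and was lost with no filter on low counts and without any of CD27+CD69+ replicates 1, 3 and 5 and CD11b+CD69+ replicates 2, 3, 4 and 5 (adjusted p up to 0.138 over all these fits). Rora, a nuclear receptor of innate lymphoid cells, was at 35.5, 52.4 and 87.4 CPM in CD27+CD69+ cells and at 8.68, 17.7 and 28.3 CPM in CD11b+CD69+ cells (log2 difference 1.61 ± 0.31, edgeR adjusted p = 0.00327).

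**Figure D2:**
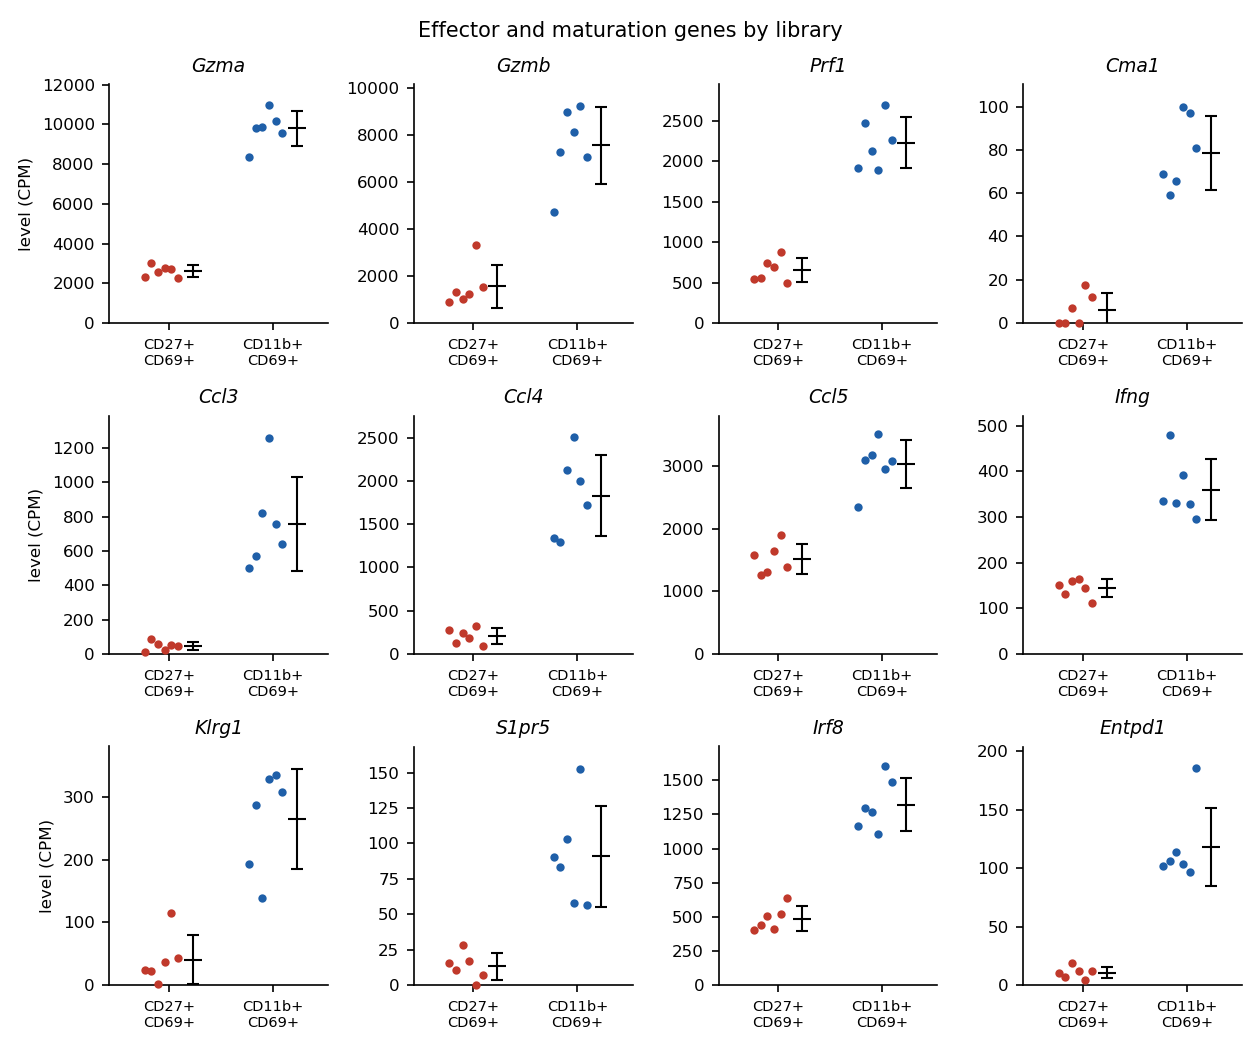
Level in CPM (y axis, from 0, its own scale in each panel) of 12 effector and maturation genes in the 6 CD27+CD69+ libraries (red, left) and the 6 CD11b+CD69+ libraries (blue, right), with the mean and SD beside each group. The genes were picked among those that fell, so their separation is a description. In all 12 panels every CD27+CD69+ library lies below every CD11b+CD69+ library, and Klrg1 and Gzmb each have 1 raised CD27+CD69+ library.

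Of 17 tested genes of immature NK cells 8 rose, none fell and the rest did not pass (median log2 difference 1.12). Those that rose were Cd27, Ltb, Emb, Cd160, Il7r, Cd7, Thy1 and Cxcr3, of which Cd27 was used in the sort, so its rise is no finding. Emb, whose product embigin escorts monocarboxylate transporters to the cell surface, was at 1125, 1339 and 1415 CPM in CD27+CD69+ cells and at 232, 335 and 428 CPM in CD11b+CD69+ cells. A wide gap separated the groups (log2 difference 1.98 ± 0.20, a 3.95-fold higher level, edgeR adjusted p = 6.15e-07). Cd160, an activating receptor for classical and non-classical MHC class I, was at 307, 448 and 518 CPM in CD27+CD69+ cells and at 55.4, 154 and 213 CPM in CD11b+CD69+ cells (log2 difference 1.61 ± 0.29, edgeR adjusted p = 0.00168). Ltb, which encodes lymphotoxin beta, the membrane ligand of lymphoid tissue organisation, was at 192, 273 and 448 CPM in CD27+CD69+ cells and at 51.0, 80.1 and 108 CPM in CD11b+CD69+ cells (log2 difference 1.87 ± 0.38, edgeR adjusted p = 0.00497). Il7r, the IL-7 receptor alpha chain of early lymphoid and helper-like innate cells, was at 83.3, 93.5 and 226 CPM in CD27+CD69+ cells and at 0, 2.25 and 23.7 CPM in CD11b+CD69+ cells (log2 difference 3.84 ± 0.81, edgeR adjusted p = 0.00829). In none of the 3 did the ranges meet, and without CD11b+CD69+ replicate 5 the Il7r difference was 4.56. Cd7, an immunoglobulin family protein of T and NK cells, rose by 0.99 ± 0.17 on the log2 scale (edgeR adjusted p = 0.000603). Several of these genes are also expressed by T cells, whose summed markers were at a median of 3075 CPM in CD27+CD69+ cells and 1250 CPM in CD11b+CD69+ cells, and the part of T cell RNA in these rises was not tested.

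Receptors of migration and residency changed in both directions. Of 17 tested egress and homing receptors 5 rose, Cxcr3, Cxcr6, Ccr7, Ccr8 and Gpr183, and 2 fell, S1pr5 among them (median log2 difference 0.47). Cxcr3, the receptor for interferon-induced chemokines, was at 298, 467 and 576 CPM in CD27+CD69+ cells and at 84.2, 189 and 218 CPM in CD11b+CD69+ cells (log2 difference 1.44 ± 0.27, edgeR adjusted p = 0.00222). Cxcr6, the CXCL16 receptor of liver and tissue-resident lymphocytes, was at 47.6, 107 and 299 CPM in CD27+CD69+ cells and at 0, 5.24 and 12.0 CPM in CD11b+CD69+ cells (log2 difference 4.76 ± 0.93, edgeR adjusted p = 0.00437). Gpr183, the oxysterol receptor EBI2, was at 188, 308 and 391 CPM in CD27+CD69+ cells and at 9.97, 48.7 and 83.9 CPM in CD11b+CD69+ cells (log2 difference 2.69 ± 0.38, edgeR adjusted p = 6.56e-05). The groups were separate for all 3 receptors, and Cxcr6 was at 292 and 299 CPM in CD27+CD69+ replicates 2 and 4 while the other 4 libraries were at 47.6 to 123 CPM. Ccr8, a chemokine receptor best known from regulatory T cells, was at 9.07, 29.3 and 64.98 CPM in CD27+CD69+ cells and had no counts in CD11b+CD69+ cells, at least 148-fold higher where 3 counts summed over all CD11b+CD69+ libraries stand in for 0 (edgeR adjusted p = 0.00346). Ccr7, the lymph node homing receptor, was at 33.1, 101 and 289 CPM in CD27+CD69+ cells and at 0, 4.56 and 23.4 CPM in CD11b+CD69+ cells (log2 difference 3.74 ± 0.91, edgeR adjusted p = 0.0262). Among 18 tested genes of type 1 innate lymphoid cells and tissue residency 4 rose, Gpr183, Cxcr6, Tmem176b and Cd3g, and 1 fell, Entpd1 (median log2 difference 0.98). The residency integrins did not pass: Itga1, which encodes CD49a, had a median of 50.7 CPM in CD27+CD69+ cells and 50.5 CPM in CD11b+CD69+ cells (edgeR adjusted p = 0.984), and Itgae, which encodes CD103, 3.41 CPM in CD27+CD69+ cells and 3.32 CPM in CD11b+CD69+ cells (edgeR adjusted p = 0.889). T cells also express Ccr7, Ccr8, Cxcr3 and Cxcr6, and the part of the T cell RNA described above in these rises was not tested. Of 20 tested integrins and integrin activators 1 passed in the fit of all 24 libraries, Itgam, which was used in the sort, so the list gave no call beyond the sort in that fit. Itgb1 did not pass there, but passed with DESeq2 and in the fit of 12 libraries. It was at 1046 to 1333 CPM in CD27+CD69+ cells and at 1350 to 1851 CPM in CD11b+CD69+ cells.

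The summed T cell markers were higher in every CD27+CD69+ library than in any CD11b+CD69+ library. Of the 104 genes higher in CD27+CD69+ cells, 18 were T cell receptor or CD3 genes, and 21 had no counts in CD11b+CD69+ cells. Of the 96 lower genes, 1 had no counts in CD27+CD69+ cells. A gene without counts in 1 population passed the filter on low counts only through other populations. The shares of such genes over all genes tested are not given, so these counts are a description. Of the 11 T cell markers 9 were tested and 8 rose, while Cd4 had 0 counts in CD27+CD69+ cells and 25 in CD11b+CD69+ cells, and Trbc1 was at 982, 1080 and 1117 CPM in CD27+CD69+ cells and at 931, 964 and 1145 CPM in CD11b+CD69+ cells (edgeR adjusted p = 0.891). Cd3e, the CD3 epsilon chain that a T cell receptor complex requires, was at 70.8, 151 and 184 CPM in CD27+CD69+ cells and at 0, 0 and 4.56 CPM in CD11b+CD69+ cells (log2 difference 6.48 ± 0.62, edgeR adjusted p = 1.85e-07). Cd3d was at 243, 447 and 535 CPM in CD27+CD69+ cells and at 0.434, 2.65 and 49.2 CPM in CD11b+CD69+ cells (log2 difference 5.10 ± 0.72, edgeR adjusted p = 0.00015). Cd3g was at 286, 582 and 745 CPM in CD27+CD69+ cells and at 10.6, 33.7 and 98.2 CPM in CD11b+CD69+ cells (log2 difference 3.80 ± 0.65, edgeR adjusted p = 0.00156). All 3 chains were separate between the groups, and without CD11b+CD69+ replicate 3 the Cd3d difference was 6.37 and that of Cd3e 7.19. Without CD11b+CD69+ replicate 5 the Cd3e difference was 7.15. Cd8a, a co-receptor chain of cytotoxic T cells, was at 2.89, 11.5 and 30.4 CPM in CD27+CD69+ cells with no counts in CD11b+CD69+ cells, at least 59.7-fold higher (edgeR adjusted p = 0.00771).

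Gamma and beta chain genes of the T cell receptor were among the largest rises. Tcrg-C2, a gamma constant gene on chromosome 13, was at 36.6, 97.3 and 165 CPM in CD27+CD69+ cells and had no counts in CD11b+CD69+ cells, at least 431-fold higher (edgeR adjusted p = 6.43e-07). Tcrg-C1 was at 21.2, 49.4 and 90.3 CPM in CD27+CD69+ cells, again with no counts in CD11b+CD69+ cells, at least 223-fold higher (edgeR adjusted p = 7.42e-07). The gamma variable gene Trgv2 stood at 11.6 to 50.7 CPM in CD27+CD69+ cells, at least 139-fold higher (edgeR adjusted p = 9.34e-06). Each of these was present in all 6 CD27+CD69+ libraries. Beta variable genes were patchier, and Trbv17 ran from 0 to 141 CPM over the CD27+CD69+ libraries (edgeR adjusted p = 0.00997) and lost its call with limma-voom and with no filter on low counts. Trac, the alpha constant gene, was at 116, 312 and 412 CPM in CD27+CD69+ cells and at 28.3, 41.3 and 77.0 CPM in CD11b+CD69+ cells (log2 difference 2.57 ± 0.33, edgeR adjusted p = 1.65e-05). In all, 15 of 34 tested receptor segments and constants rose, and Trdv4, a delta variable gene, was the 1 that fell (log2 difference -0.66 ± 0.17, edgeR adjusted p = 0.0391). The constant genes are near copies of each other and may share reads. Libraries of 100 sorted cells do not show whether few cells with much of this RNA or many cells with little of it were present, and the part of T cells in the rises was not tested.

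Further genes with large rises were Dpp4, which encodes the peptidase CD26 (29.4, 45.4 and 68.3 CPM in CD27+CD69+ cells, 0, 0 and 4.58 CPM in CD11b+CD69+ cells, edgeR adjusted p = 1.65e-05), and Ehd3, an endosomal trafficking gene (5.61, 46.2 and 77.7 CPM in CD27+CD69+ cells, 0, 0.684 and 9.42 CPM in CD11b+CD69+ cells, edgeR adjusted p = 0.00686). Gramd3 was at 267, 377 and 500 CPM in CD27+CD69+ cells and at 46.1, 81.2 and 122 CPM in CD11b+CD69+ cells (log2 difference 2.22 ± 0.27, edgeR adjusted p = 9.34e-06). Slc25a4, the mitochondrial ADP and ATP carrier, was at 216, 236 and 278 CPM in CD27+CD69+ cells and at 71.7, 93.8 and 115 CPM in CD11b+CD69+ cells (log2 difference 1.34 ± 0.19, edgeR adjusted p = 6.56e-05). Ranges were separate for Dpp4, Gramd3 and Slc25a4 and overlapped for Ehd3. Dpp4 differed by 5.70 on the log2 scale, and by 8.34 without CD11b+CD69+ replicate 5. Ehd3 differed by 4.01, and by 4.92 without CD11b+CD69+ replicate 2. Ms4a4c, a tetraspan gene of a family with similar copies, rose by 1.39 ± 0.18 on the log2 scale (edgeR adjusted p = 1.65e-05), and the hair keratin gene Krt83 was at 30.8, 44.0 and 117 CPM in CD27+CD69+ cells and at 0, 0 and 6.94 CPM in CD11b+CD69+ cells, where all its counts were in replicate 1 (edgeR adjusted p = 0.00449).

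**Figure D3:**
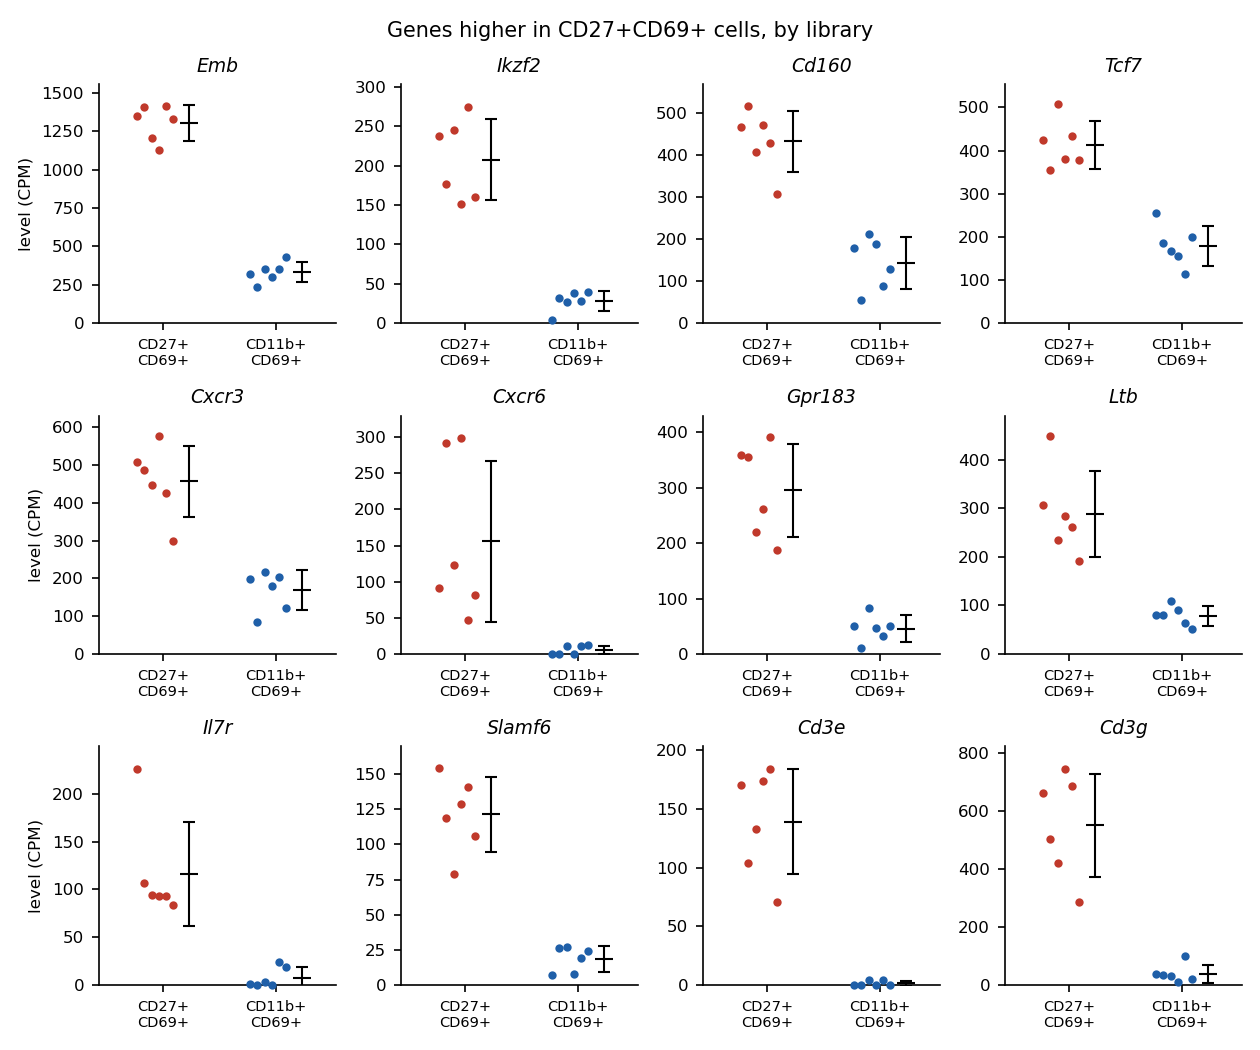
Level in CPM (y axis, from 0, its own scale in each panel) of 12 genes that rose, in the 6 CD27+CD69+ libraries (red, left) and the 6 CD11b+CD69+ libraries (blue, right), with the mean and SD beside each group. Emb and Ikzf2 form tight groups far apart, Cxcr6 and Il7r are uneven among CD27+CD69+ libraries, and Cd3e and Cd3g are present in all 6 CD27+CD69+ libraries.

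NK cell receptors changed by family. Of 9 tested Ly49 genes, which bind MHC class I, 3 fell, Klra4, Klra8 and Klra9, and 1 rose, Klra6 (median log2 difference -0.61). Klra6 was at 76.2, 99.5 and 195 CPM in CD27+CD69+ cells and at 2.22, 24.3 and 39.5 CPM in CD11b+CD69+ cells, with no overlap (log2 difference 2.31 ± 0.48, edgeR adjusted p = 0.00592). Klra9 was at 261, 395 and 501 CPM in CD27+CD69+ cells and at 478, 724 and 926 CPM in CD11b+CD69+ cells, with slight overlap (log2 difference -0.95 ± 0.21, edgeR adjusted p = 0.0102). Klra8 (-0.76 ± 0.20, edgeR adjusted p = 0.0438) and Klra4 (-0.61 ± 0.16, edgeR adjusted p = 0.0473) were near the threshold. The Klra8 call was lost without any of CD27+CD69+ replicates 1, 2, 3 and 5 and CD11b+CD69+ replicates 1, 3, 4 and 5 (adjusted p up to 0.129), and the Klra4 call without any library except CD11b+CD69+ replicate 2 (adjusted p up to 0.123). Klra8 was also lost with no filter on low counts, and Klra4 with counts thinned to the smallest library. Ly49 genes are near copies of each other, and reads may be shared between them. Of 15 NKG2, CD94 and NKR-P1 genes 4 fell, Klrg1, Klrb1b, Klrb1c and Klri2 (median log2 difference -0.16). The Klri2 call was lost without any of CD27+CD69+ replicates 1, 4 and 6 and CD11b+CD69+ replicates 4 and 5 (adjusted p up to 0.08). Klrb1c, which encodes the NK1.1 antigen, was at 853, 983 and 1187 CPM in CD27+CD69+ cells and at 1406, 1652 and 1736 CPM in CD11b+CD69+ cells (log2 difference -0.67 ± 0.11, edgeR adjusted p = 0.000544). Among 17 activating receptors and adaptors Cd160 and Slamf6 rose and Ncr1 and Fcer1g fell (median log2 difference -0.16). Ncr1, the NKp46 receptor, was at 1203, 1559 and 1901 CPM in CD27+CD69+ cells and at 1917, 2175 and 2298 CPM in CD11b+CD69+ cells (log2 difference -0.47 ± 0.10, edgeR adjusted p = 0.0102). Fcer1g, the adaptor through which NKp46 signals, fell by a like amount (log2 difference -0.51 ± 0.10, edgeR adjusted p = 0.00212). Slamf6, a self-binding SLAM family receptor, was at 79.2, 124 and 154 CPM in CD27+CD69+ cells and at 6.94, 21.8 and 26.9 CPM in CD11b+CD69+ cells (log2 difference 2.702 ± 0.65, edgeR adjusted p = 0.0235). The Slamf6 call was lost without any of CD27+CD69+ replicates 1, 4 and 5 and CD11b+CD69+ replicates 1, 2, 4, 5 and 6 (adjusted p up to 0.0747). This call was also lost with no filter on low counts (edgeR adjusted p = 0.135). Of 14 listed checkpoint receptors 8 were tested, and Pdcd1, Lag3, Havcr2, Lilrb4b, Pilra and Cd300a were not. Of the 8 tested (median log2 difference 0.28) 0 passed in edgeR, 3 had an unadjusted p under 0.05, 0 passed in DESeq2 and 1, Ctla4, passed in limma-voom. Ctla4, a brake on costimulation, was at 33.1, 176 and 291 CPM in CD27+CD69+ cells and at 1.30, 31.4 and 110 CPM in CD11b+CD69+ cells (edgeR adjusted p = 0.128).

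Receptors for IL-2 and IL-15, the cytokines that sustain NK cells, did not differ past the threshold. Of 14 tested receptor, JAK and STAT5 genes 0 passed in edgeR, 1 had an unadjusted p under 0.05 and 0 passed in DESeq2 or limma-voom (median log2 difference -0.11). Il2rb, the shared beta chain, was at 1333, 1512 and 1672 CPM in CD27+CD69+ cells and at 1677, 1934 and 2160 CPM in CD11b+CD69+ cells. Its ranges did not overlap, yet the difference missed the threshold in the fit of all 24 libraries (log2 difference -0.37 ± 0.17, edgeR adjusted p = 0.41) and passed in the fit of these 12 (adjusted p = 0.0103). Il2rg, the common gamma chain, had a median of 858 CPM in CD27+CD69+ cells and 959 CPM in CD11b+CD69+ cells (edgeR adjusted p = 0.614), and Il2ra, the high-affinity alpha chain, 22.3 CPM in CD27+CD69+ cells and 12.2 CPM in CD11b+CD69+ cells with wide overlap (edgeR adjusted p = 1). Il15ra, which presents IL-15, had a median of 65.2 CPM in CD27+CD69+ cells and 51.1 CPM in CD11b+CD69+ cells (edgeR adjusted p = 0.694). Of 22 listed STAT5 targets 4 fell, Gzmb, Prf1, Tnfrsf9 and Ccnd3, and 1 rose, Odc1 (median log2 difference -0.24). Ccnd3, a G1 cyclin, lost its call without any of CD27+CD69+ replicates 2, 5 and 6 and CD11b+CD69+ replicate 5 (adjusted p up to 0.0658). Tnfrsf9, the costimulatory receptor 4-1BB, was at 459, 675 and 945 CPM in CD27+CD69+ cells and at 1016, 1217 and 1728 CPM in CD11b+CD69+ cells (log2 difference -0.96 ± 0.19, edgeR adjusted p = 0.00287). Other cytokine receptor chains gave 2 rises among 19 tested (median 0.02), Il7r and Il6st, the shared chain of the IL-6 family, at a median of 13.5 CPM in CD27+CD69+ cells and 0.207 CPM in CD11b+CD69+ cells (edgeR adjusted p = 0.0438). The Il6st call was lost without any library except CD27+CD69+ replicates 2 and 4 and CD11b+CD69+ replicate 3 (adjusted p up to 0.104). This call was also lost with limma-voom. Of the chains not called, Il18rap passed with DESeq2, limma-voom, the replicate block and counts thinned to the smallest library. It also passed in the fits without CD27+CD69+ replicate 3, CD11b+CD69+ replicate 2 or CD11b+CD69+ replicate 5. Ifngr1 passed with DESeq2, with limma-voom and in the fit of 12 libraries. Among 18 tested TNF ligands and receptors Cd27, Ltb and Tnfrsf26 rose and Tnfrsf9 and Fasl fell (median 0.84), and of these Cd27 was used in the sort. Tnfrsf26 lost its call without any of CD27+CD69+ replicates 1, 5 and 6 and CD11b+CD69+ replicates 3, 4, 5 and 6 (adjusted p up to 0.102). This call was also lost with counts thinned to the smallest library (edgeR adjusted p = 0.138).

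Of the groups in this paragraph, ribosomal protein genes had the largest share past the threshold (13.9%), and the others had few calls or none. A positive log2 difference was found for 5447 of all 10536 genes tested, and the sign counts in this paragraph stand against that. All 79 tested ribosomal protein genes had a positive log2 difference (median 0.37), 11 rose past the threshold and none fell, and ribosomal protein genes held 2.90 ± 0.27% of counts in CD27+CD69+ cells and 2.19 ± 0.171% in CD11b+CD69+ cells (SD, n = 6 each, two-sided exact permutation p = 0.00433). Rpl4, of the large subunit, was at 1527, 1751 and 1967 CPM in CD27+CD69+ cells and at 1113, 1290 and 1359 CPM in CD11b+CD69+ cells (log2 difference 0.48 ± 0.09, edgeR adjusted p = 0.00212). CD27+CD69+ replicate 3, the library with haemoglobin RNA, had the lowest ribosomal protein share of its group, 2.38%. Of 27 replication and mitosis genes 2 rose, Ccne1, which encodes the S phase cyclin E1, and Stmn1, a regulator of microtubules in dividing cells (median log2 difference 0.35). The log2 difference was positive for 25 of the 27. Ccne1 was at 0, 9.51 and 28.9 CPM in CD27+CD69+ cells and had no counts in CD11b+CD69+ cells, at least 44.8-fold higher (edgeR adjusted p = 0.0149), and Stmn1 was at 4.82, 45.7 and 154 CPM in CD27+CD69+ cells and at 1.44, 10.0 and 21.6 CPM in CD11b+CD69+ cells (edgeR adjusted p = 0.0456). Both are uneven among CD27+CD69+ libraries and both lost their calls with limma-voom. Stmn1 also lost its call without any library except CD27+CD69+ replicates 1 and 6 and CD11b+CD69+ replicate 2 (adjusted p up to 0.217). It was further lost with no filter on low counts, in the fit of 12 libraries and with the replicate block (adjusted p up to 0.491 over all fits). Of 21 immediate early genes 1 fell, the phosphatase gene Dusp2, and 5 of the 21 had a positive log2 difference (median -0.34). Dusp2 was at 311, 403 and 509 CPM in CD27+CD69+ cells and at 545, 843 and 905 CPM in CD11b+CD69+ cells (log2 difference -0.95 ± 0.20, edgeR adjusted p = 0.00551). Of 13 chaperones 1 fell, the HSP40 gene Dnajb1 (log2 difference -0.82 ± 0.21, edgeR adjusted p = 0.0346), with overlapping ranges. The median log2 difference of the 13 was -0.29, and 1 of them was positive. The Dnajb1 call was lost without any of CD27+CD69+ replicates 2, 3, 4 and 6 and CD11b+CD69+ replicates 2, 4 and 6 (adjusted p up to 0.105). This call was also lost with limma-voom and with the replicate block. Of the chaperones not called, Hsph1, Hspa1a and Hsp90b1 passed with DESeq2, and Hsph1 and Hspa1a in the fit of 12 libraries. Hsph1 also passed with the replicate block and without CD11b+CD69+ replicate 5, and Hsp90b1 without CD11b+CD69+ replicate 6. Of 15 genes of MHC class I and its peptide supply (median log2 difference 0.11) 1 rose, the immunoproteasome subunit Psmb8. Its log2 difference was 0.36 ± 0.10 (edgeR adjusted p = 0.0442), with overlapping ranges. The Psmb8 call was lost without any library except CD27+CD69+ replicate 6 or CD11b+CD69+ replicate 4 (adjusted p up to 0.131). This call was also lost with no filter on low counts and with the replicate block (edgeR adjusted p up to 0.188). Among 25 type I interferon response genes, 19 of glycolysis and hypoxia, 18 of oxidative phosphorylation, 14 of TGF-beta signalling and 11 of the BCL2 family 0 passed in edgeR, with median log2 differences of 0.01, 0.06, 0.07, -0.17 and -0.20 in that order. In the same order 1, 3, 0, 3 and 2 genes had an unadjusted p under 0.05. By DESeq2's Wald test 2 of all these genes passed, Ldlrad4, an inhibitor of TGF-beta signalling, and Pfkp, a glycolytic enzyme gene, and by limma-voom 1 passed, Ldlrad4.

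**Figure D4:**
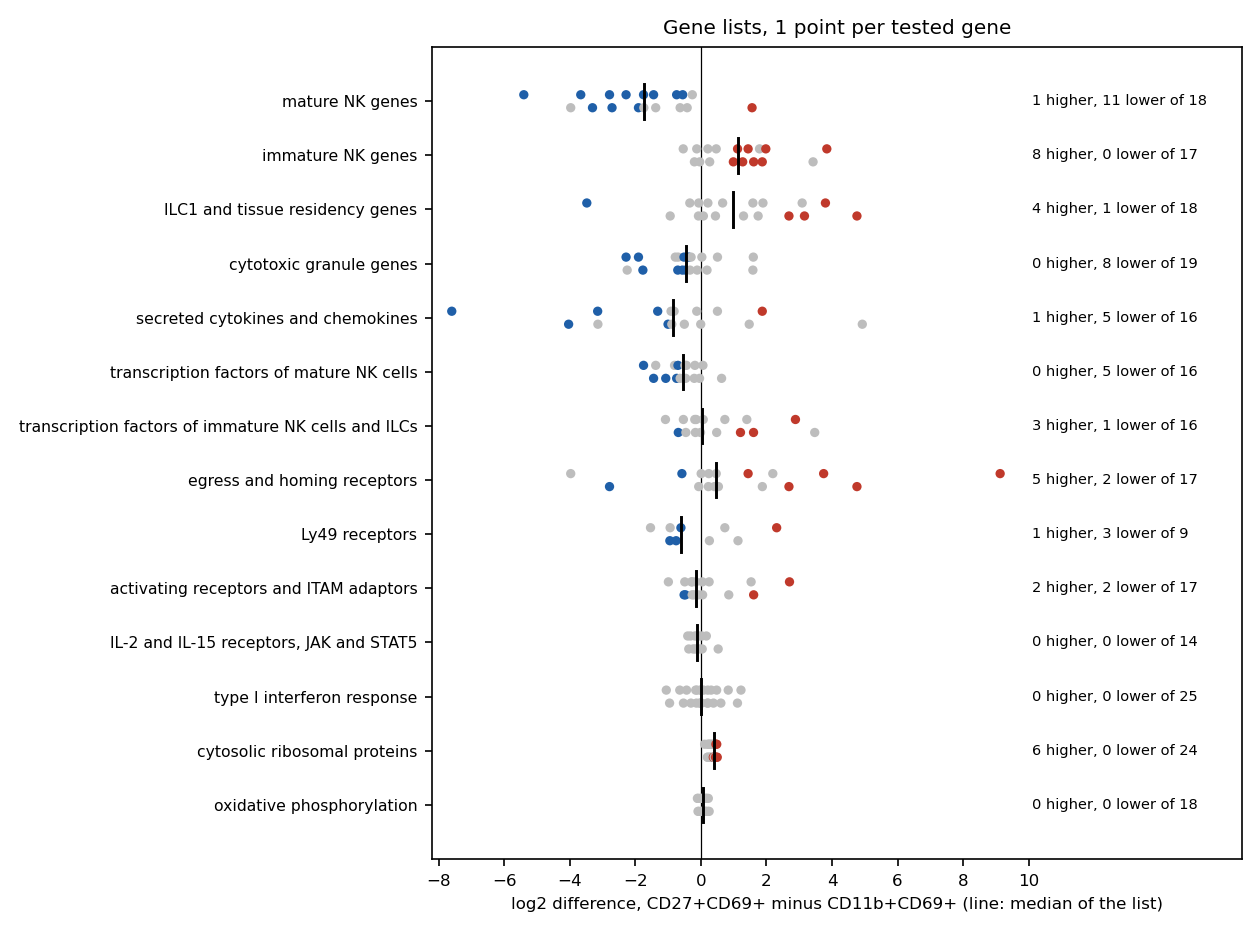
Log2 difference of CD27+CD69+ over CD11b+CD69+ (x axis) for each tested gene of 14 lists (rows), with genes that rose in red, genes that fell in blue, the rest in grey and the list median as a black line. The medians of mature NK and cytotoxic granule genes lie to the left of zero and that of immature NK genes to the right, with single genes on the other side in each list, and the medians of IL-2 and IL-15 receptor, interferon and oxidative phosphorylation genes lie near zero.

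The same maturation contrast in CD69- cells, in libraries that the comparison above does not use, gave 1304 genes past the threshold (12.4% of those tested), 786 higher and 518 lower in CD27+CD69- cells. Of the 200 genes called among CD69+ cells 167 were called there in the same direction, which is 83.5% of the CD69+ calls and 12.8% of the CD69- calls, 2 were called in the opposite direction and 192 had the same sign. The share with the same sign over all genes tested is not given, so the count of signs is a description. Gzma differed by -1.702 among CD69- cells (edgeR adjusted p = 4.84e-11), Prf1 by -2.60 (edgeR adjusted p = 9.08e-10), Emb by 2.74 (edgeR adjusted p = 9.08e-10) and Ikzf2 by 3.40 (edgeR adjusted p = 9.65e-08), all in the direction seen with CD69. Of the 6 CD27+CD69- libraries 5 also held fibroblast RNA, with summed fibroblast markers at 0 CPM in replicate 5, a median of 3428 CPM and a highest of 8211 CPM, against at most 8.02 CPM in CD11b+CD69- libraries. Summed melanoma markers had a median of 124 CPM in CD27+CD69- libraries and reached 5957 CPM in replicate 6, against at most 4.10 CPM in CD11b+CD69- libraries, and the part of that RNA in the count was not tested. T cell markers summed to a median of 2212 CPM in CD27+CD69- cells and 982.5 CPM in CD11b+CD69- cells.

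The test of the difference between both contrasts found 61 genes (0.579%), 25 with a more positive and 36 with a more negative difference among CD69+ cells, and 997 had an unadjusted p under 0.05. Of the 61, 9 were also among the 200. Ly6c2 had a log2 difference of 1.56 among CD69+ cells and -0.38 among CD69- cells (difference 1.95 ± 0.43, edgeR adjusted p = 0.0333). Ero1lb, an oxidase of disulphide bond formation in the endoplasmic reticulum, was at 16.2, 24.7 and 38.3 CPM in CD27+CD69+ cells and at 4.97, 8.96 and 11.7 CPM in CD11b+CD69+ cells. Among CD69- cells it was at 10.7, 15.9 and 23.7 CPM in CD27+CD69- cells and at 20.2, 33.2 and 42.0 CPM in CD11b+CD69- cells, so its direction turned with CD69 (difference 2.63 ± 0.46, edgeR adjusted p = 0.00452). The Ero1lb call among CD69+ cells was lost with no filter on low counts and with counts thinned to the smallest library (edgeR adjusted p up to 0.0609). Hopx, a homeodomain protein of effector lymphocytes singled out after its values were seen, differed by 0.83 among CD69+ cells and by -0.12 among CD69- cells (difference 0.95 ± 0.20, edgeR adjusted p = 0.0171). Itgb2, which encodes the beta chain shared by LFA-1 and the CD11b integrin, had a log2 difference of -0.42 among CD69+ cells, which did not pass, and of -1.61 among CD69- cells (edgeR adjusted p = 0.0372 for the difference). Rap1b, a small GTPase that activates integrins, had -0.29 among CD69+ cells, which did not pass, and -0.99 among CD69- cells (edgeR adjusted p = 0.0153 for the difference). Klra9 and Ccnd3 fell in both settings, by more among CD69- cells (Klra9 -0.95 and -2.48, edgeR adjusted p = 0.0118 for the difference). Ifi44, an interferon-induced gene, had no counts in CD11b+CD69- cells and was at 11.5, 27.7 and 38.0 CPM in CD27+CD69- cells, while among CD69+ cells it was at 23.8, 44.2 and 91.9 CPM in CD27+CD69+ cells and at 29.4, 63.5 and 149 CPM in CD11b+CD69+ cells (edgeR adjusted p = 1.4e-05 for the difference). Lama4, a laminin chain gene, S100a16, Adgrd1 and Anxa3 were at most at 11.3 CPM in any CD27+CD69+ or CD11b+CD69+ library. In CD27+CD69- libraries, the group with fibroblast RNA, their medians were 46.5, 122, 40.9 and 227 CPM in that order, and the part of that RNA was not tested.

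**Figure D5:**
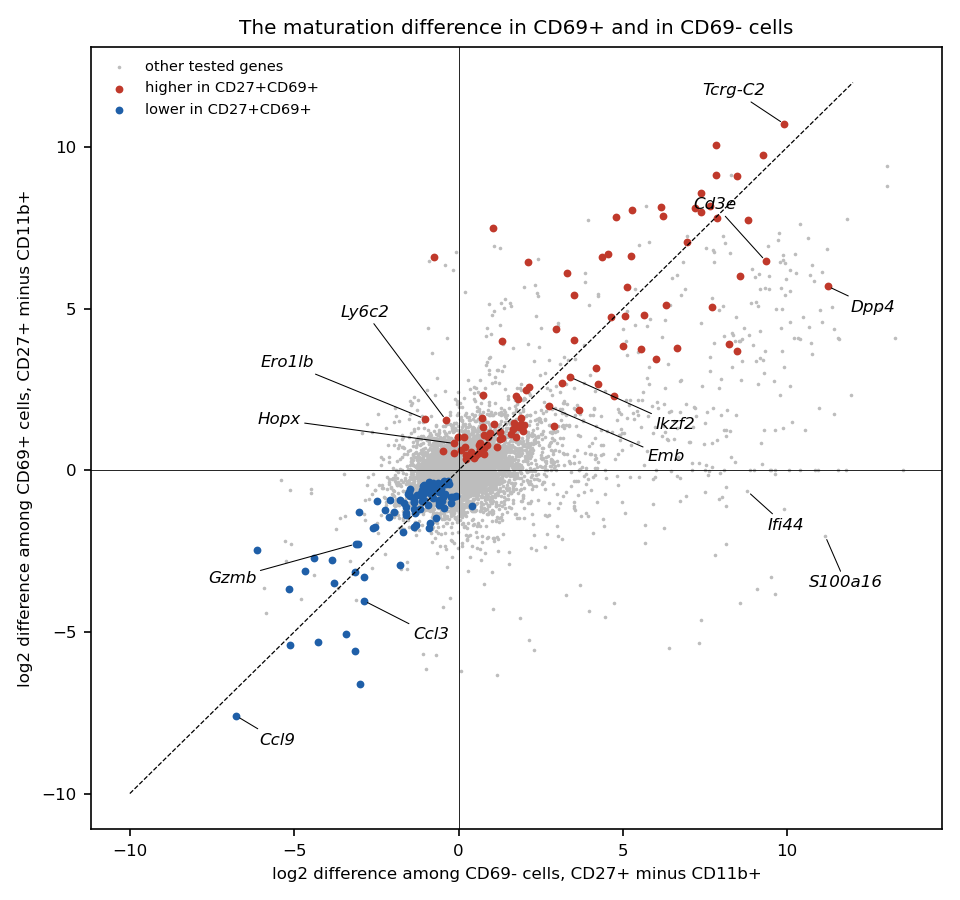
Log2 difference of CD27+ over CD11b+ cells among CD69+ cells (y axis) against the same among CD69- cells (x axis), 1 point per gene tested, with genes higher in CD27+CD69+ cells in red, lower ones in blue and others in grey, and a dashed line of equal differences. Of the 200 coloured genes 192 have the same sign on both axes, and Ero1lb and Ly6c2 lie above zero on the y axis and below zero on the x axis. The share with the same sign over all genes tested is not given.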

How the data were processed

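RNA-seq of 24 libraries of 100 sorted cells each was deposited by the authors as 1 table of raw counts per Ensembl gene. Per the labels' protocols, libraries were made with SMART-Seq v4 and Nextera XT, a kit pair that keeps no strand and uses no molecular identifiers, so PCR copies are counted as reads and counting intervals cover counting error only. HTSeq, Picard and GRCm38 are named in the submitters' processing notes, while no source used here gives the aligner, the gene annotation used or how strand was handled in counting. Reads in exons shared by overlapping genes, or by near copies such as Klra, Gzm, Serpin, Ms4a, Ly6 and T cell receptor genes, may therefore be misassigned.

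The table holds 53471 entries for 53465 gene identifiers, and 3433 identifiers without a symbol hold 0.174% of counts. Groups were taken from sample titles. edgeR 4.0.16 (R 4.3.3) kept 10536 genes with filterByExpr (minimum count 10), scaled with TMM and fitted all 24 libraries with a quasi-likelihood model and no block, with Benjamini-Hochberg adjustment over all genes and a threshold of 0.05. The contrasts were CD27+CD69+ minus CD11b+CD69+, the same among CD69- cells, and the difference between both. DESeq2 1.42.0, limma-voom (limma 3.58.1), DESeq2 size factors, no filter on low counts, a mean of at least 10 CPM, a fit of 12 libraries, the replicate number as a block, thinned counts and each library left out were the alternatives. The fit was tested on simulated data. Libraries of the same group differed by more than counting noise (chi-square per degree of freedom at least 10.7), which without molecular identifiers does not show that they came from separate cells, and each was counted as 1 replicate as labelled.

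Gene lists, members and tests were chosen with earlier results of these data known. Named genes are the sort markers and NK and cytokine receptor genes, the largest rises and falls past the threshold with a mean of at least 10 CPM and counts in at least 5 of 6 libraries of the higher population, the genes of smallest p, and up to a few lowest-p members per list. Outside this rule, Tbx21, Eomes, Hopx, Zeb2, Gzmc, Serpinb9, Fasl, Xcl1, Itga1, Itgae, Ccr7, Cd8a, Trbc1, Trdv4 and Ctss, and further list members given by name only, were chosen after their values were seen. A gene with 0 counts in a population was set at a floor of 3 counts over its 6 libraries for a lower bound on the fold. Promoters come from RefSeq on GRCm38.p6. Results for a few genes are not reported here.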

Additional observations from a re-analysis of the deposited data

Results flagged for a closer look

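In 292 groups of 6 values, 40 held a library whose gap to the others was large against the group's whole range. The rule flags about 1 in 20 groups where values are normally spread. A group with a single value above 0 is always flagged, so the count cannot be set against chance. Among CD27+CD69+ libraries, replicate 5 stood apart for Klrg1 (115 CPM), Gzmb (3324 CPM), Klra6 (195 CPM), Itgb1 (1046 CPM, the lowest) and Adgrd1 (0.454 CPM). Its Klrg1 and Gzmb levels were thus the nearest in its group to those of CD11b+CD69+ cells. Replicate 4 stood apart for the division genes Stmn1 (154 CPM) and Birc5 (61.7 CPM), the metabolic genes Hk2 (45.7 CPM) and Atp5a1 (1398 CPM), and for Serpinb9b (326 CPM), Cym (2.75 CPM) and Lama4 (0.551 CPM). Replicate 3 had 3388 CPM of haemoglobin and platelet genes, the lowest ribosomal protein share (2.38%) and the only Ccl9 count of its group (0.508 CPM). Replicate 6 had the lowest Ly6c2 (301 CPM), S100a16 at 0.963 CPM and fibroblast markers at 5.78 CPM. Replicate 1 had the highest Il7r (226 CPM) and Cdc20b (3.23 CPM) and the lowest Klra4 (689 CPM), and replicate 2 the highest Krt83 (117 CPM).

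Among CD11b+CD69+ libraries, T cell receptor complex genes were high in single libraries, Cd3d in replicate 3 (49.2 CPM), Cd3g in replicate 5 (98.2 CPM) and Tcrg-V1 in replicate 6 (2.49 CPM). Replicate 5 also had the highest Cym (45.0 CPM), Cdc20b (77.0 CPM), Tgfbr1 (32.5 CPM) and Dpp4 (4.58 CPM). Replicate 6 had the highest Ccl9 (94.5 CPM), Entpd1 (185 CPM) and Adgrd1 (7.46 CPM). Replicate 1 had the lowest Ikzf2 (3.47 CPM) and the highest Ifngas1 (1.30 CPM), Krt83 (6.94 CPM), Lama4 (11.3 CPM), S100a16 (4.77 CPM) and melanoma marker sum (28.2 CPM). Replicate 3 had the highest Il6st (3.19 CPM), and replicate 4 the highest share of mitochondrially encoded counts (1.31%).

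The maturation difference among CD69+ cells differed from that among CD69- cells, by the test of the difference itself, for 13 named genes. The log2 difference was more positive among CD69+ cells by 0.70 for Rap1b, 1.19 for Itgb2, 1.53 for Klra9, 0.90 for Ccnd3, 2.63 for Ero1lb, 2.07 for Gatsl3, 1.95 for Ly6c2 and 1.34 for Tmem37 (edgeR adjusted p from 0.00452 to 0.0372). The fitted value was -13.45 for Lama4, -13.17 for S100a16, -12.78 for Adgrd1, -12.65 for Anxa3 and -9.43 for Ifi44 (edgeR adjusted p from 1.4e-05 to 0.0153). These 5 genes have groups at 0 counts, so the fitted values depend on the prior count and are no sizes.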

How the results depend on the processing

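Leaving out each of the 12 libraries in turn gave 145 to 190 genes past the threshold, against 200 with all of them, with 78 to 104 higher and 66 to 86 lower. DESeq2's Wald test called 349 genes, 205 of them higher, and shared 198 with the 200. Among CD69- cells 1480 genes were higher with no filter on low counts and 1352 with DESeq2. For the difference between both contrasts DESeq2 called 211 genes, 68 higher and 143 lower, sharing 59 of the 61, and without a filter 11 were higher. The cause was not tested. Of 80 named genes past the threshold, 61 passed in every fit that gave them a value, with 75 of the 80 present in the fit of 12 libraries, 78 with a mean of at least 10 CPM and 80 in the others, 67 passed with every library left out, and 0 changed direction. Some named genes not called in the main fit passed in alternatives. With DESeq2 they were 9, Itgb1, Il18rap, Ifngr1, Ldlrad4, Birc5, Pfkp, Hsph1, Hsp90b1 and Hspa1a. In the fit of 12 libraries they were 6, Il2rb, Itgb1, Ifngr1, Ier5, Hsph1 and Hspa1a.

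Each replicate number in the titles occurs in all 4 populations, and no source used here says what it marks. Same-numbered libraries of the 2 populations did not deviate together (correlation at most 0.0215, against -0.0349 to 0.0384 for other numbers). This does not show whether they shared an animal or a sort. With the replicate block 198 genes passed, of which 178 were shared with the fit without it. Genes that had not passed changed sign under some settings: Il2ra was at 0.36 with limma-voom, at 0.58 with the replicate block and from -0.24 to 0.37 with a library left out, Lama4 from -5.07 to 1.24, S100a16 from -3.91 to 1.88 and Adgrd1 from -4.505 to 1.22. The mean of at least 10 CPM and the fit of 12 libraries were not run for the CD69- contrast or the difference. A library's 3-count floor was 1.21 to 1.66 CPM, so genes near it are not resolved.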
